A study of Homo sapiens with 6 samples.

Results

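The response of aglaiacized HEK293T-REx cells to RocA was measured by ribosome profiling in 3 of the 6 libraries of the series. HEK293T-REx, as the labels write it, is a human embryonic kidney line that carries the tetracycline repressor. The groups were aglaiacized cells given RocA (1 library) and aglaiacized cells given the solvent DMSO (2 libraries, replicates 1 and 2), and the 3 libraries of the naive line, with the same layout, served for comparison. The labels put "aglaiacized" in the sample titles and give the same cell line for both; in the study the word stands for cells with an eIF4A1 that carries residues of Aglaia, the plant that makes RocA. The sources used here give no dose, no time and no number of clones, and do not say whether the cells keep their own eIF4A1. Whether the DMSO libraries are separate cultures is not labelled either, and the p-values reflect a spread between libraries that could be technical.

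Ribosome profiling digests RNA with nuclease and sequences the stretches that ribosomes cover, so that an mRNA carrying more ribosomes yields more of these footprints. RocA, or rocaglamide A, acts on eIF4A, the helicase that prepares the 5′ end of an mRNA for the scanning ribosome. The compound clamps eIF4A onto purine-rich RNA, and the clamped protein stands in the way of scanning, so that mRNAs differ in how strongly RocA represses them. Aglaia plants tolerate the compound, which is traced to residues of their eIF4A at the site where it binds.

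The deposited counts are per transcript row, with an identifier, a listed length and a raw count. Rows with the same counts in all 6 libraries were merged into 1 transcript model, which left 38543 models, and 31393 of them, averaging 20 counts or more over the 3 aglaiacized libraries, were tested. The files do not pair identifiers with gene names, so no gene is named, models are described by their listed length and values, and no sequence could be set beside them. No unit is stated for the listed length. Models of 1 gene can share reads, so a number of models is not a number of genes. To show this, neighbouring models of the files whose counts kept nearly the same ratio in all 6 libraries were joined into runs, and the 31393 models made 23201 runs. The aglaiacized DMSO libraries held 21337146 and 28428267 counts and the RocA library 8316797, which is 0.334 times the DMSO mean. Values below are counts per 1e6 counts (CPM) scaled by TMM factors, and a change is always relative to the other models of the library.

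In aglaiacized cells, the RocA library differed from the DMSO libraries in a large part of the tested models, with many modest rises and a long tail of deep falls. There is 1 RocA library, so a change with RocA and one of this library cannot be told apart. Of the 31393 models, 14021 passed the test (edgeR quasi-likelihood, Benjamini-Hochberg adjusted p under 0.05), which is 44.7% of those tested. DESeq2 called 8324, of which 4766 were higher and 3558 lower in RocA. Of the 14021, 7059 rose (22.5% of all tested), at a median of 0.79 on the log2 scale, whereas 6962 fell (22.2%), at a median of -1.10. The rises formed 4792 runs and the falls 5115 runs. All of the called models lay outside the range of both DMSO libraries, as did 90.4% of all tested models. The models that rose held 46.7% and 47.1% of the counts in the DMSO libraries and 64.2% in the RocA library. Those that fell held 20.3% and 20.1% in DMSO and 8.86% in RocA. The spread was taken from the DMSO pair. Without a scaling factor the median over all models was -0.34 in place of -0.04, and 3698 models rose and 11045 fell.

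The falls reached further than the rises. Among the called models, 1584 (5.05% of those tested) were 2-fold higher or more and 4004 (12.8%) were 2-fold lower or more. At 4-fold there were 11 rises, in 6 runs, and 771 falls, in 648 runs. At 8-fold there was no called rise and there were 129 falls, in 123 runs. The filter on raw counts, most of them from the deeper DMSO libraries, admits rare models low in RocA more readily than rare models low in DMSO. The lowest 1% of all fitted log2 fold changes lay below -2.46, whereas the highest 1% lay above 1.29. This asymmetry was present against each DMSO library, with 1% points of -2.34 and 1.35 against replicate 1 and of -2.33 and 1.28 against replicate 2. Of the 1584 rises of at least 2-fold, 1010 were that large against both DMSO libraries, and of the 4004 falls 3436 were. Of the 11 rises of at least 4-fold, 4 were that large against both.

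**Figure D1:**
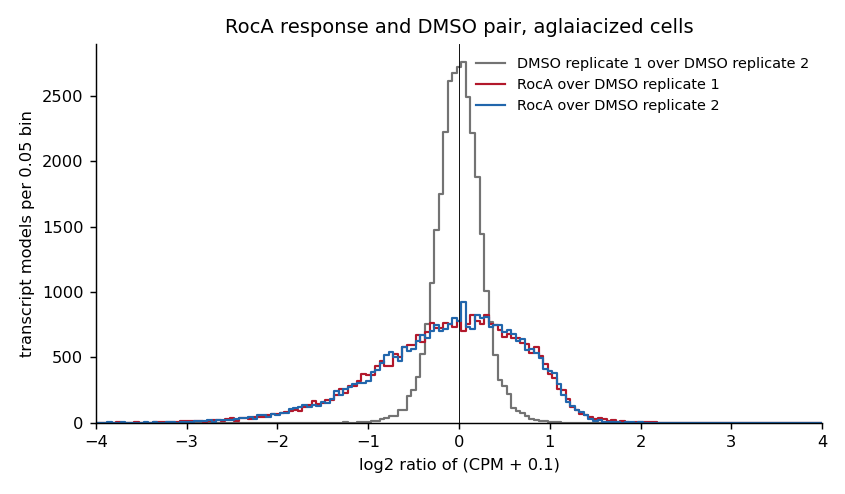
Number of transcript models (y axis, per bin of 0.05) by log2 ratio of CPM plus 0.1 (x axis) for RocA over each aglaiacized DMSO library (red and blue) and for the DMSO libraries over each other (grey), n = 31393 models. Both RocA curves are about as wide as each other (SD 0.805 and 0.798, against 0.247 for the DMSO pair) and reach further to the left than to the right; 3 and 6 models lie left of the axis.

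The DMSO libraries resembled each other more closely than either resembled the RocA library. The SD of the log2 ratio was 0.805 for RocA over DMSO replicate 1 and 0.798 over replicate 2, but 0.247 for replicate 1 over replicate 2. The DMSO pair of the naive line gave 0.225 on the same models. A 2-fold gap between the aglaiacized DMSO libraries was found in 56 models (0.178%) and a 4-fold gap in 2. Among models averaging 50 counts or more, the 10 with the largest excess in replicate 2 had 24 to 63 counts in replicate 1 and 71 to 166 in replicate 2. The first of the named rises, described next, is among these 10.

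Among models averaging 50 counts or more, and taking 1 per run, the 10 largest rises were found in models of very unequal listed length, from 78 to 2413 length units. The largest was uc002hvi.3 (listed length 575), with 1.05 CPM in DMSO replicate 1, 2.33 CPM in DMSO replicate 2 and 13.0 CPM in RocA. The RocA value lay above both DMSO values, which themselves differed by more than in most models. The log2 fold change was 2.89 (SE 0.27), and it was 3.51 against replicate 1 and 2.43 against replicate 2 on the log2(CPM + 0.1) scale. The SE uses a trend of spread common to all models, not the gap between the DMSO values of this model. With DESeq2 the log2 fold change was 2.97. The next was uc003djl.2 (listed length 2413), with 3.45 and 3.77 CPM in DMSO and 15.8 CPM in RocA. Its DMSO values lay close together, and the log2 fold change was 2.12 (SE 0.24, edgeR adjusted p = 3.48e-17). It is 1 of 6 models of a run with listed lengths of 2400 to 2624 and log2 fold changes of 2.04 to 2.12, which may be isoforms of 1 gene that share their footprints.

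The other 8 rises had log2 fold changes of 1.64 to 1.799. A model of listed length 108 went from 2.49 and 3.31 CPM in DMSO to 10.2 CPM in RocA. A model of listed length 89, better covered than the rest, went from 16.9 and 16.7 CPM to 53.0 CPM; its log2 fold change was 1.66 (SE 0.17), with an edgeR adjusted p of 1.46e-20. In each of the 10 the RocA value was above both DMSO values, as the rule for naming them requires. Models of listed length 879 and 2355 among them lie 3 rows apart in the files, so they may share reads too. The level in the RocA library ran from 7.47 to 53.0 CPM over the 10, well below the level of the most abundant models. Below 50 counts, 22 further models had a called rise larger than the last of these 10, up to 2.50 on the log2 scale; 4 of the 6 runs with a 4-fold rise are among them.

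The 10 largest falls among models averaging 50 counts or more, again 1 per run, were left with 1 to 5 counts in the RocA library. The deepest of them was uc003uvc.4 (listed length 301), with 68 and 103 counts in the DMSO libraries and 1 count in RocA. In CPM these are 2.97 and 3.38 against 0.138. The ratio of DMSO to RocA was 23.2, with an exact 95% counting interval of 4.101 to 920.0 (edgeR adjusted p = 5.42e-07). The interval is wide because the RocA library holds 1 read, and it covers counting error only. The next, uc011lzv.2 (listed length 221), had 59 and 102 counts in DMSO and 1 in RocA, a ratio of 21.8 with an interval of 3.86 to 867 (edgeR adjusted p = 1.39e-06). The other 8 had listed lengths of 100 to 647 and fitted log2 fold changes of -3.89 to -3.34. Of the 10, 2 pairs lie within 5 rows of each other in the files, so they may share reads. Each pair holds 1 of the falls printed by identifier. Below 50 counts, 68 further models had a called fall deeper than the last of these 10. Of these, 16 had no read in the RocA library and 22 to 87 counts in each DMSO library. Set at 3 counts, or 0.415 CPM, in the RocA library, they were at least 2.66-fold to at least 6.02-fold lower, and all 16 passed the test. None of the tested models was without reads in either aglaiacized DMSO library. The minimum is a mean of raw counts and the DMSO libraries are deeper. A model at 0 in RocA therefore passes it more easily than a model at 0 in DMSO, and this contrast partly follows from the filter.

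**Figure D2:**
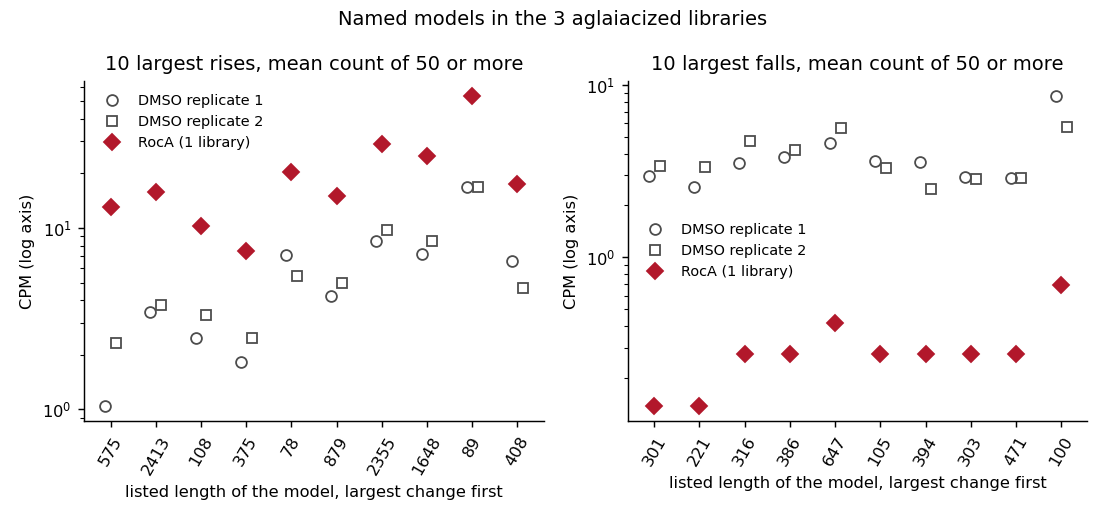
CPM on a log axis in the 2 aglaiacized DMSO libraries (open circles and squares) and the RocA library (red diamonds) for the 10 largest rises (left) and falls (right) among models averaging 50 counts or more, labelled by listed length, largest change first. RocA lies above both DMSO values on the left (7.47 to 53.0 CPM) and below both on the right, where its 0.138 to 0.692 CPM stand for 1 to 5 counts.

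Better covered models give firmer sizes for the falls, though a minimum count in RocA leaves out deeper falls with few reads there. Among falls with at least 20 counts in RocA, a rule set after the values were seen, the deepest was a model of listed length 166, with 578 and 855 counts in DMSO (25.2 and 28.1 CPM) and 25 counts in RocA (3.46 CPM). Its log2 fold change was -2.95 (SE 0.28, edgeR adjusted p = 5.75e-23). The next 4 lay between -2.94 and -2.71, and 2 of them, of listed length 1637 and 1695, are neighbours in the files.

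Among the 3545 models that averaged 1000 counts or more, a set also chosen after the values were seen, 1700 rose (48%) and 736 fell (20.8%), beside 22.5% and 22.2% of all tested models. Well covered models are called more easily, and the mean that picks them includes the RocA library. The median log2 fold change of the set was 0.29, against -0.04 over all tested models. Log2 fold changes in the set ran from -2.67 to 1.53. The deepest fall was that of a model of listed length 331, with 126 and 143 CPM in DMSO and 21.2 CPM in RocA, a log2 fold change of -2.67 (SE 0.18) with an edgeR adjusted p of 7.39e-45. A model of listed length 1512 followed, with 60.3 and 55.9 CPM in DMSO and 9.55 CPM in RocA (log2 fold change -2.60). Another, of listed length 2561, went from 106 and 96.8 CPM to 18.0 CPM (log2 fold change -2.50). The DMSO values of each lay close together and the RocA value far below them, so falls of about this depth were seen in well measured models, short and long. The largest rise of the set was that of a model of listed length 4637, with 142 CPM in both DMSO libraries and 409 CPM in RocA, a log2 fold change of 1.53 (SE 0.13) with an edgeR adjusted p of 1.5e-30. The next, of listed length 494, went from 66.0 and 75.2 CPM to 193 CPM (log2 fold change 1.45). The other 3 of the 5 largest rises were short, with listed lengths of 121, 127 and 127 and log2 fold changes of 1.40 to 1.43, and all 3 stand near each other in the files.

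The most abundant models mostly rose. Of the 10 with the highest mean CPM in aglaiacized DMSO, 1 per run, 9 passed the test and all 9 were higher in RocA. Among all models averaging 1000 counts or more, 48% rose and 20.8% fell, shares that also follow precision. The 9 include 2 models with almost the same counts. The most abundant, of listed length 453, held 3664 and 3609 CPM in DMSO and 6115 CPM in RocA, a log2 fold change of 0.75 (SE 0.11) with an edgeR adjusted p of 2.09e-10. The largest rise of the 10 was shared by 2 models of listed length 127. The first of them held 2201 and 2605 CPM in DMSO and 6257 CPM in RocA, a log2 fold change of 1.38 (SE 0.11) with an edgeR adjusted p of 2.5e-33, which made it the most abundant model of the RocA library. The counts of the second were almost the same in each library (45228 and 45170 in RocA), so the pair may be copies that share reads. The 1 exception was a model of listed length 425, with 2337 and 2362 CPM in DMSO and 2132 CPM in RocA, a log2 fold change of -0.14 (SE 0.12) with an edgeR adjusted p of 0.333.

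The upper ranks took a larger part of the RocA library. The 10 most abundant models of each library held 2.63% and 2.80% of the counts in DMSO and 4.07% (95% Wilson interval 4.06% to 4.08%) in RocA. The 1000 most abundant held 44.4% and 44.6% in DMSO and 51.8% (51.78% to 51.85%) in RocA. The intervals cover counting error within 1 library, not the spread between libraries. The difference in share between RocA and DMSO was larger than that between the DMSO libraries at both ranks. With 2 libraries against 1, no exact permutation p under 0.05 can be had, so none is given.

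**Figure D3:**
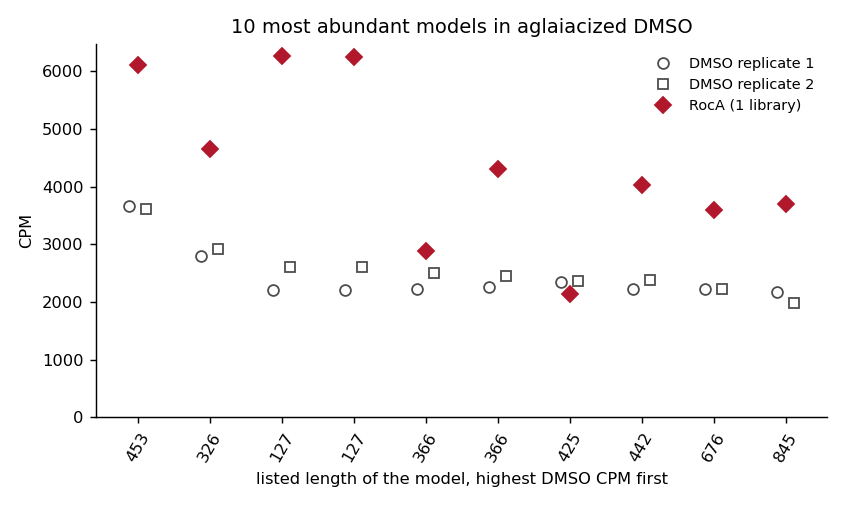
CPM (linear axis from 0) of the 10 models with the highest mean CPM in aglaiacized DMSO, labelled by listed length, in DMSO replicate 1 (circles), DMSO replicate 2 (squares) and RocA (red diamonds). RocA lies above both DMSO values for 9 models, the highest at 6257 CPM, and below them for the model of listed length 425 at 2132 CPM.

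Models with a higher mean count had a higher median response. The mean includes the RocA library, so this grouping is not independent of the response. In 5 quintiles by mean count over the 3 libraries, the median log2 fold change was -0.18, -0.14, -0.11, 0.01 and 0.22 from the least to the most covered. The share of models that rose went from 7.07% to 42.5%. The share that fell was 12.5% in quintile 1, 27.9% in quintile 4 and 22.2% in quintile 5. These shares also follow precision, since the median SE of the log2 fold change was 0.49 in quintile 1 and 0.16 in quintile 5. The median of the DMSO pair stayed between -0.01 and 0.01 in every quintile. The most covered quintile held 77.0% and 77.1% of the counts in DMSO and 81.1% in RocA.

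Footprint density, the level per length, ordered the response in a similar way. Density was taken from the naive DMSO libraries, which take no part in the comparison, as CPM per 100 length units. The median log2 fold change in aglaiacized cells went from -0.19 in quintile 1 (density up to 0.681) to 0.18 in quintile 5 (density from 6.97 to 1361). The difference between them was 0.36, and it was 0.35 against DMSO replicate 1 and 0.38 against replicate 2. The same difference in the DMSO pair was 0.03. In quintile 5, 39.8% of models rose and 22.4% fell, and in quintile 1, 9.24% rose and 16.6% fell. These shares follow precision too, with a median SE of 0.44 in quintile 1 and 0.16 in quintile 5. Dense models were also better covered, with a median mean count of 46.7 in quintile 1 and 1010 in quintile 5. Across the 31393 models the Spearman correlation of the response with density was 0.153, a weak relation across models that are not independent and that share the same libraries. Total scaling moves each median but not these differences between groups.

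Listed length ordered the response less clearly than density did. Models of up to 100 length units (910 models) had a median log2 fold change of 0.17, and 32.5% of them rose and 15.9% fell. The median was 0.10 over 100 to 200 units, -0.03 over 200 to 400, -0.07 over 400 to 800 and -0.13 over 800 to 1600. In the 1007 models over 1600 units it was -0.01, with 23.3% that rose and 25.7% that fell, so the medians did not go on falling. The shortest group lay above the longest by 0.19 in the fit, by 0.18 against replicate 1 and by 0.17 against replicate 2, and the DMSO pair gave -0.07. It was 0.31 with all libraries thinned to the smallest total, 0.29 at a mean of 100 counts or more and 0.12 with every row kept. Short models are also denser (Spearman correlation of length with density -0.423 across models). Within quintiles of density, the shortest length quintile lay above the longest by 0.36, 0.09, 0.04 and 0.09 in quintiles 1 to 4 and was lower in quintile 5, with a difference of -0.04. Within quintiles of length, the densest models lay above the least dense by 0.06, 0.23, 0.44, 0.36 and 0.46 from the shortest to the longest. In the DMSO pair these differences reached at most 0.13 in size. The shortest models of lowest density, on which 1 value of each series rests, number 229, and their median was 0.14 against DMSO replicate 1 and 0.04 against replicate 2. Scarce in naive DMSO, they were tested because of their counts in the aglaiacized libraries, RocA included. The filter may thus favour models high there, and these 2 values cannot be read apart from it.

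**Figure D4:**
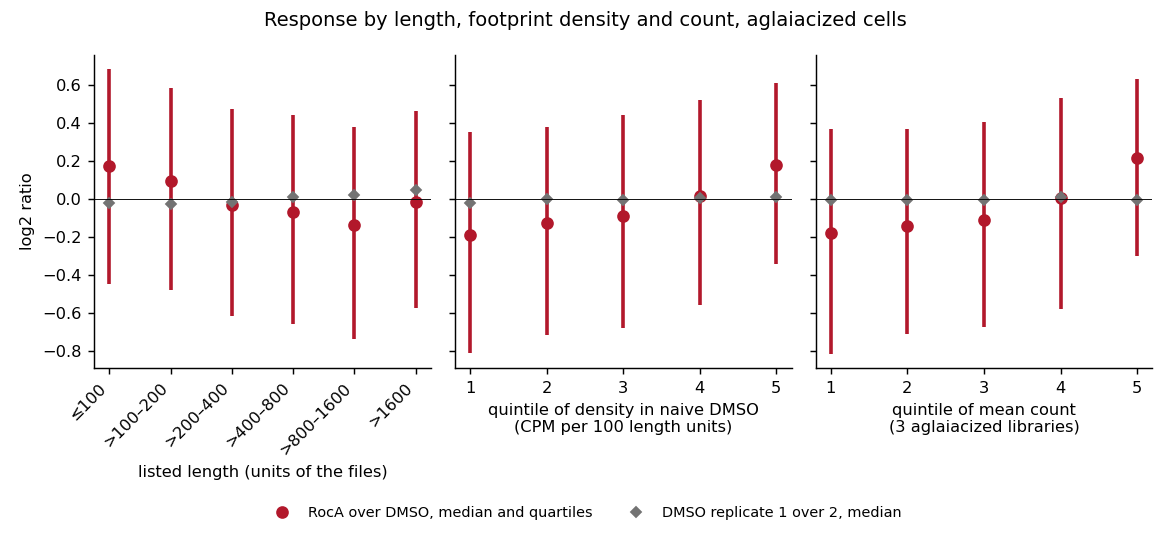
Log2 ratio (y axis) by group of listed length (left), quintile of footprint density in naive DMSO (middle) and quintile of mean count (right). Red points and bars are the median and quartiles of RocA over DMSO in aglaiacized cells and grey diamonds the median of DMSO replicate 1 over 2; the medians rise from -0.19 to 0.18 with density and from -0.18 to 0.22 with count, while the bars of all groups overlap.

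The naive line shows how much of the response is shared. For this comparison all 6 libraries were fitted together, and both lines' values come from that fit. The 2 responses share no library. The Spearman correlation between them was 0.803 across the 31393 models. Models were placed in bands by their response in aglaiacized cells, which favours a large value there over the naive one. In the band from 1 to 1.5 on the log2 scale (1528 models) the median was 1.11 in aglaiacized and 1.72 in naive cells, and 98.6% of the models were above 0 in naive cells. Nearer 0 the sign was shared less often. From 0 to 0.5, 66.5% were above 0 in naive cells, and from -0.5 to 0, 72.4% were below 0. In the band from 0.5 to 1 the medians were 0.72 and 1.08. In the band from -1.5 to -1 (2544 models) they were -1.20 and -1.64. In the band below -2 (772 models) they were nearly equal, -2.36 and -2.43.

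The difference of the responses was tested directly as an interaction, and 7961 of 31393 models passed (25.4%), with 3499 above 0 (11.1%) and 4462 below 0 (14.2%), aglaiacized minus naive. DESeq2 called 3992, and with 1 model per run edgeR called 5289 of 23201. In the band from 1 to 1.5, 715 models had a called difference with the larger rise in naive cells and 29 one with the smaller, together 48.7% of the band. In the band from -1.5 to -1, 425 called models were lower in naive cells and 98 were not as low. Together they are 20.6% of the band, below the 25.4% of all tested models. Below -2 the calls were nearly even, 42 lower in naive cells and 39 not as low, together 10.5% of the band. The median mean count there was 74.2, against 198 in the band from 1 to 1.5. Without a scaling factor the split over all models became 6599 above 0 and 2466 below 0.

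For single models the direction was shared more often than the size. The counts of called differences below stand beside 25.4% of all tested models. They come from models picked by the size of their change or by abundance, and well covered models are called more easily. Of the 10 rises listed for aglaiacized cells, 9 were above 0 in naive cells and 7 were larger there. The difference was called in 9 of the 10, 3 of them toward a larger rise in aglaiacized cells. The clearest of these 3 was a model of listed length 408, with 12.2 and 18.7 CPM in naive DMSO and 11.3 CPM in naive RocA. In aglaiacized cells it went from 6.59 and 4.69 CPM to 17.4 CPM, and the difference of the log2 fold changes was 2.095 (SE 0.31, edgeR adjusted p = 5.03e-08). In naive cells its RocA value was below both DMSO values, whereas in aglaiacized cells it was above both. The other 2 are the models of listed length 879 and 2355 that may share reads. Of the 10 falls listed, all were below 0 in naive cells and 3 were larger there, and the difference was called in none; at 1 to 5 counts in RocA, the SE of the difference ran up to 1.70. Among the 10 well covered models described above, the 5 deepest falls and the 5 largest rises at 1000 counts or more, the naive change was the larger in all 10. The difference was called in 5 of the 5 falls and 4 of the 5 rises. The fall of the model of listed length 331 was -2.67 in aglaiacized and -4.17 in naive cells, a difference of 1.498 (edgeR adjusted p = 4.46e-06). The rise of the model of listed length 4637 was 1.53 in aglaiacized and 1.802 in naive cells, and this difference of -0.28 was not called (edgeR adjusted p = 0.125). The naive change was also the larger in the 10 most abundant models, with the difference called in 7; for the model of listed length 425 the lines differed by only 0.006. Each line has 1 RocA library, so a difference between the lines and one between these libraries cannot be told apart.

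**Figure D5:**
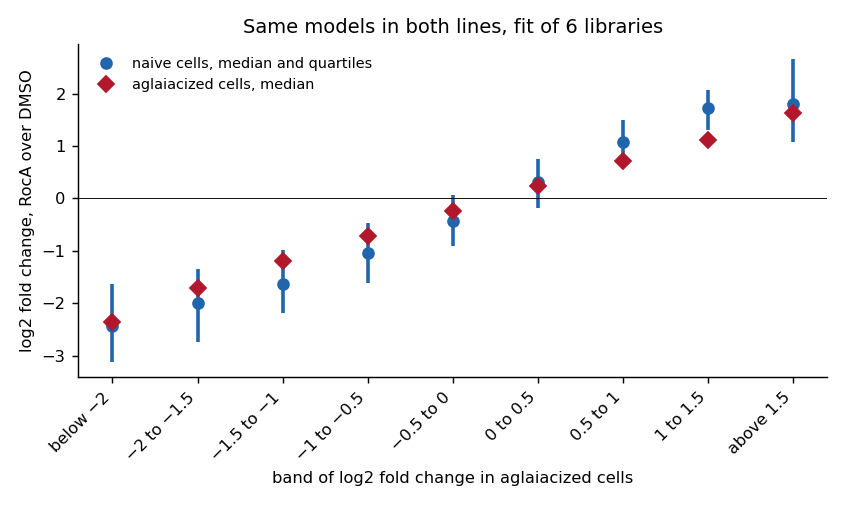
Log2 fold change, RocA over DMSO (y axis), of models placed in bands by their value in aglaiacized cells (x axis): median in aglaiacized cells (red diamonds) and median with quartiles of the same models in naive cells (blue), from 1 fit of 6 libraries. The naive median lies further from 0 than the aglaiacized one in every band, clearly so from 1 to 1.5 (1.72 against 1.11) and only slightly below -2 (-2.43 against -2.36).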

How the data were processed

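Footprint counts of 6 libraries were used, 3 of them from aglaiacized cells. The authors deposited raw counts per transcript row, with another whole-number column of lengths whose unit is not stated. Per the submitters' processing notes, build hg19 was used with TopHat2 2.0.9, Bowtie2 2.1.0 and CASAVA 1.8; how reads were counted, and how multiple matches and rRNA were treated, is not stated there or in the files. Of 82960 rows, 19269 without a length held 0 counts and stayed out. Members, gene rule and groups were chosen with earlier results of these data known.

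Tests used edgeR 4.0.16 in R 4.3.3 (quasi-likelihood, TMM, two-sided, Benjamini-Hochberg over all tested models, threshold 0.05). RocA against DMSO was fitted on the 3 aglaiacized libraries, with 1 residual degree of freedom; edgeR then gave all models 1 common trend of spread. The difference between lines was fitted on all 6. SE is the size of the log2 fold change over the root of F. Single-library ratios used a pseudocount of 0.1 CPM. Neighbours joined into runs kept log2 count ratios within a range of 0.2. Named models passed the test, averaged 50 counts or more and had RocA outside both DMSO values, 1 per run. On simulated data of 31393 models the comparison called 61% of 100 changed 2-fold and 93% of 100 changed 4-fold. There were 12 false calls among the models left unchanged. The simulated libraries shared 1 common spread and had no differences of their own, and few models were changed. The simulation therefore cannot give the rate of false calls in the real comparison. Figures used matplotlib 3.10.9. Of the 82960 identifiers, 1 was found in the reference gene table, and it was not among the tested models. So eIF4A counts, which might check the line, and the unit of the length were not examined.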

Additional observations from a re-analysis of the deposited data

Results flagged for a closer look

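A difference between lines in the response to RocA was called by edgeR in 7961 models (by DESeq2 in 3992), with the spread taken from the DMSO pairs and 1 RocA library per line. Among the models printed by identifier it passed in both rises. It was -1.39 for uc002hvi.3 (SE 0.36, edgeR adjusted p = 0.00156), which had 51 and 28 counts in naive DMSO, 225 in naive RocA, and in aglaiacized cells 24 and 71 under DMSO and 94 under RocA. This call was lost without aglaiacized DMSO replicate 2 (-0.64, edgeR adjusted p = 0.246), without naive DMSO replicate 2 (-1.01, edgeR adjusted p = 0.0506) and with DESeq2 (-1.38, DESeq2 adjusted p = 0.432). It was -1.25 for uc003djl.2 (SE 0.26, edgeR adjusted p = 6.71e-05), with 189 and 162 counts in naive DMSO, 533 in naive RocA, and in aglaiacized cells 79 and 115 under DMSO and 114 under RocA. That call was kept under all 11 alternatives that could be run for it, with adjusted p-values from 1.68e-06 to 0.00416.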

How the results depend on the processing

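No paired analysis was possible because the RocA libraries carry no replicate number. Abundance and density alternatives were chosen after seeing the data. For the aglaiacized response DESeq2 called 8324 models (57.3% rises; 5477 models without an adjusted p) and 3992 for the difference between lines; the cause was not tested. With 1 model per run the difference was called in 5289 of 23201 models (22.8%), fewer being tested. Leaving out each aglaiacized DMSO library, in the fit of all remaining libraries, gave 15767 to 15938 calls, and leaving out each DMSO library of either line gave 5540 to 10309 for the difference. Without a scaling factor 25.1% of calls were rises, not 50.3%, and 72.8% of differences lay above 0, not 44.0%. The fit of all 6 libraries called 15264. With a mean count of at least 100, thinning and every row, the length difference of 0.19 became 0.29, 0.31 and 0.12, and the density difference of 0.36 became 0.31, 0.32 and 0.33; the latter was 0.30 with a pseudocount of 1 CPM. The abundance difference of 0.40 became 0.42 without a filter, 0.48 with thinning, 0.37 with every row, 0.38 per run, 0.33 with that pseudocount and 0.38 to 0.40 leaving out a DMSO library. The ratio of SDs, RocA over DMSO to DMSO pair, was 3.25, and 3.30 and 3.33 with pseudocounts of 0.01 and 1 CPM and 3.91 at 100 counts. The 100 most abundant models held 4.43 percentage points more in RocA, and 5.89 per run. Named models had no value where DESeq2 gave no adjusted p (both falls), where they averaged under 100 counts, where thinning took one below the minimum (uc011lzv.2) or where a run was reduced to another model. The direction of these group values held throughout. At 1 to 5 counts in RocA, depth limits the size of the deepest falls.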
